A study of Mus musculus with 3 samples.

Results

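Cycling C1q cells were tumor-derived immune cells that carried transcripts of complement C1q together with Mki67 and Top2a, a pair of genes read out in dividing cells. They were chosen from raw counts of unique molecular identifiers (UMIs, each marking 1 captured transcript). A barcode needed 200 or more detected genes with no more than 20% of its UMIs from mitochondria, at least 5 summed UMIs of C1qa, C1qb and C1qc, under 4 UMIs of 6 T cell genes (Cd3d, Cd3e, Cd3g, Trac, Trbc1, Trbc2), under 3 UMIs of 3 B cell genes (Cd79a, Cd79b, Ms4a1), and at least 3 summed UMIs of Mki67 and Top2a. Of 71909 kept barcodes, 11567 met the C1q, T cell and B cell limits and are called C1q cells, and 2029 of these were cycling. The other 9538 had fewer than 3 UMIs of Mki67 and Top2a and are called resting, as a name for that limit alone.

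The cells came from subcutaneous tumors of KP1, a line of mouse small cell lung cancer, in B6129SF1/J mice that had received 500000 tumor cells. Mice were given either mono-IL-10, an engineered monomeric form of human IL-10, or IL-10/2-Trikine, in which an IL-2 variant that recruits IL-2Rβ is joined to that cytokine, at 3 µg of functional cytokine per dose on alternate days, starting on day 7 and ending on day 19. The combination group received IL-10/2-Trikine and 200 µg of anti-PD-1 antibody on day 7 and then on days 11, 15 and 19. Titles and treatment labels name the antibody for this group alone, although the wording of the protocol could also be read as anti-PD-1 in every group. Tumors were collected on day 19, leukocytes were enriched on a Ficoll gradient, and live CD45+ cells were sorted, so CD45 was part of the gate. No untreated library is among the samples, every group carried an IL-10 based cytokine, each group is 1 library, and the number of mice behind a library is not stated. No test between treatments is therefore possible, and every interval below is a 95% interval. Intervals of shares, levels and ratios cover counting error only, and those of list medians rest on the spread between the genes of a list. None of them covers variation between mice or libraries. Sets of 3 values follow the order mono-IL-10, IL-10/2-Trikine, combination.

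Macrophages in tumors arise from blood monocytes that enter the tissue and mature, and from cells of the macrophage lineage that divide in place. C1q, the recognition part of the classical complement pathway, is made largely by such mature macrophages, whereas Ccr2, Ly6c2 and Plac8 mark monocytes that have recently left the blood. IL-10 acts on macrophages through IL-10R and STAT3, and is best known there for damping inflammatory cytokines and antigen presentation. A dividing cell copies its DNA in S phase under E2F transcription factors, and makes the proteins of mitosis in G2 and M phase, many of them from promoters that carry the CHR element, the site read by the MuvB complex.

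The 3 libraries held 158570946, 197176873 and 175794959 UMIs in all, and 802, 450 and 777 cycling C1q cells were found among 22235, 22707 and 26967 kept barcodes (3.61%, 1.98% and 2.88%). Cycling cells were deeper than resting ones, with medians of 8954, 6638 and 7109 UMIs per cell against 6337, 5148 and 5113. Levels are stated in CPM (counts per 1000000), for which the UMIs of all cells of a class in a library were added up, and rested on 7643859, 3385392 and 5818980 UMIs for cycling cells. No cycling cell shared its barcode with a cycling cell of another library, and 137 to 180 kept barcodes were shared between pairs of libraries. A search for doublets (barcodes holding more than 1 cell) set no usable threshold in 2 libraries, so the 10% highest scores of each library were taken instead, and these included 6.36%, 7.11% and 6.44% of cycling and 3.54%, 3.26% and 5.28% of resting C1q cells.

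The macrophage name of these cells was checked against a list of 22 identity genes, all of which were detected, though detection alone is no check. C1qc, the gene of the C1q C chain, stood at 4285, 3418 and 4171 CPM in cycling and at 4185, 3309 and 3819 CPM in resting cells, but the summed C1q count chose both classes, so this level is a description and no check. Ms4a7, a membrane gene of macrophages, stood at 577, 451 and 470 CPM in cycling cells, against 6.61, 1.6 and 3.76 CPM in kept barcodes with no C1q UMI. Spi1, which encodes the myeloid transcription factor PU.1, stood at 616, 576 and 578 CPM, against 131, 64.9 and 62.3 CPM in barcodes with no C1q UMI. Within the list, Maf stood lower in cycling cells (36.2, 37.2 and 40.2 CPM) than in those barcodes (81.3, 83.6 and 149 CPM). So did Lyz2 (150, 329 and 62.2 against 1006, 490 and 410 CPM) and Cd14 (66.5, 132 and 65 against 225, 139 and 104 CPM). The other genes of the list were higher in cycling cells in each library. Cd72, Fcgr4 and Cxcl13 were also abundant (at least 1507, 1496 and 757 CPM in each library) and stood at or below 60.5 CPM in barcodes with no C1q UMI. Dendritic cell genes divided: Flt3 (0.523, 1.77 and 0 CPM) and Zbtb46 (1.44, 3.84 and 2.06 CPM) were near 0, whereas Batf3 (106, 113 and 118 CPM), Wdfy4 (177, 139 and 164 CPM) and Xcr1 (43.2, 37.5 and 38.8 CPM) were present in cycling cells and in resting cells (103, 99.9 and 96.5 CPM for Batf3). In barcodes with no C1q UMI, Batf3 (10.9, 14.9 and 11.3 CPM), Wdfy4 (58.9, 18.9 and 16.8 CPM) and Xcr1 (4.38, 4.03 and 1.51 CPM) were lower. Flt3 (9.77, 4.54 and 4.17 CPM) and Zbtb46 (17.4, 17.5 and 28.8 CPM) were higher there. Whether dendritic cells are among the cycling C1q cells was not tested. Trem2, a lipid receptor often used to name tumor macrophages, was at 4.97, 4.43 and 4.12 CPM, and Vsig4, a marker of resident macrophages, was at 0 in every library.

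The limit of 3 UMIs cut through a continuous range. Just outside it, 272, 115 and 255 C1q cells had exactly 2 UMIs of Mki67 and Top2a, and just inside it, 127, 70 and 91 cells had 3. The summed level of 52 G2/M genes was 2580, 3153 and 3182 CPM in the cells with 2 UMIs and 3634, 3863 and 4174 CPM in those with 3. It was 1363, 1565 and 1495 CPM in C1q cells without any Mki67 or Top2a UMI. Most cycling cells lay far inside the limit, since 52.1%, 51.6% and 54.3% of them had 10 or more of these UMIs, and there the list reached 11753, 11771 and 12032 CPM. Over the same bins the summed macrophage identity list went from 10128, 10745 and 10482 CPM at 0 UMIs to 6074, 5533 and 5485 CPM at 10 or more, and the inflammatory monocyte list from 2933, 4654 and 3730 CPM to 431, 830 and 533 CPM. C1q itself moved little, from 10340, 8381 and 9884 CPM to 9991, 7465 and 9844 CPM.

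**Figure D1:**
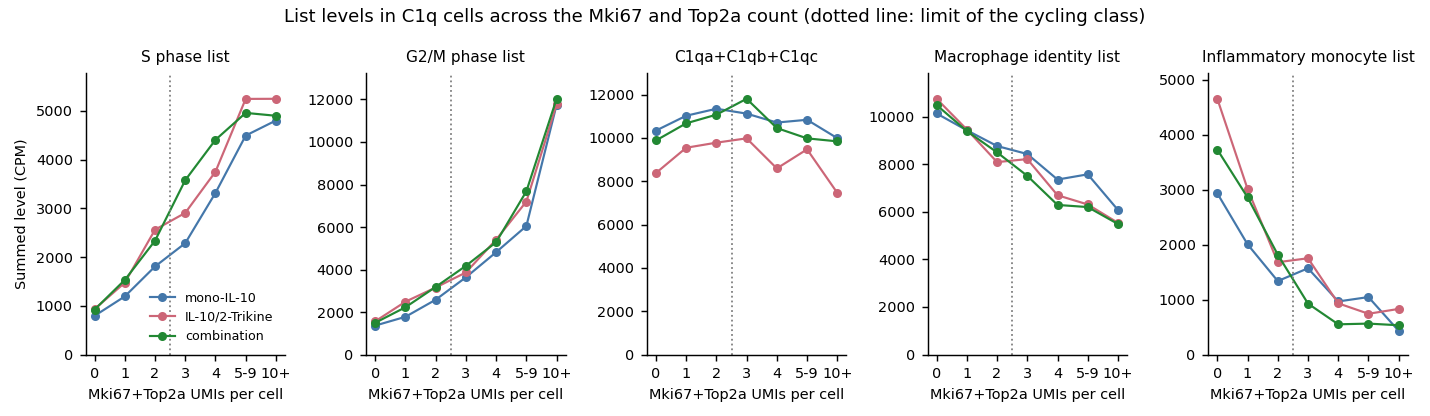
Summed CPM of gene lists (vertical axes, linear from 0) in C1q cells binned by their UMIs of Mki67 and Top2a (horizontal axis), 1 line per library. The S and G2/M lists climb across the limit of 3 UMIs without a step, the macrophage identity and monocyte lists decline (to 431, 830 and 533 CPM for the monocyte list at 10 or more UMIs), and C1q stays between 7465 and 11808 CPM.

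Of all C1q cells, 17.7% (16.6 to 18.8) were cycling in the mono-IL-10 library, 21.3% (19.6 to 23.2) in the IL-10/2-Trikine library and 15.8% (14.8 to 16.8) in the combination library, by exact Clopper-Pearson intervals. The share in the IL-10/2-Trikine library was 1.21 times that in the mono-IL-10 library (1.09 to 1.34), and the combination share was 0.739 times that in the IL-10/2-Trikine library (0.665 to 0.82). Because deeper cells pass a UMI limit more easily, each C1q cell was also thinned at random to 2000 UMIs, which left out 276, 96 and 435 shallower cells, and cells with at least 1 Mki67 or Top2a UMI were counted. The thinned shares were 24.3% (23 to 25.6), 29.4% (27.4 to 31.5) and 24.3% (23 to 25.5). The ratio of the IL-10/2-Trikine to the mono-IL-10 library was then again 1.21 (1.11 to 1.32), that of the combination to the IL-10/2-Trikine library was 0.825 (0.757 to 0.898), and that of the combination to the mono-IL-10 library was 0.998 (0.927 to 1.08), against 0.891 (0.814 to 0.975) without thinning. In cells with no UMI of T, B, NK, tumor or neutrophil marker genes, the IL-10/2-Trikine to mono-IL-10 ratio was 1.14 and its interval included 1 (0.956 to 1.36).

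Free RNA in droplets can give such UMIs to cells that do not divide, so the same share was taken in B cell and neutrophil barcodes. These barcodes may hold dividing cells as well. Without thinning, 24 of 400, 1 of 92 and 0 of 71 B cell barcodes had at least 3 Mki67 or Top2a UMIs. Free RNA and division were not told apart in them. The thinned share was 12%, 7.41% and 9.86% in 374, 81 and 71 barcodes past the B cell limit with no C1q and no T cell UMI, and 14.3% (5.43 to 28.5), 4.55% (0.947 to 12.7) and 0% in 42, 66 and 14 neutrophil barcodes with no C1q, T cell or B cell UMI, where 0 of 14 barcodes allows a share of up to 21.4% (taken as 3 counts of 14). The C1q cell shares lay above the B cell intervals, whose upper bounds were 15.8%, 15.4% and 19.3%. The neutrophil interval of the mono-IL-10 library included its C1q cell share. In the combination library the C1q cell share of 24.3% lay above the limit of 21.4% and above the exact upper bound of 23.2%. Its own interval began at 23%, and only 14 neutrophil barcodes were left there. Barcodes past the T cell limit but not the B cell limit, again with no C1q UMI, had 25.1%, 46.1% and 30.2%, so their ratio of the IL-10/2-Trikine over the mono-IL-10 library was 1.84 (1.75 to 1.93), which was 1.52 times the ratio in C1q cells (1.37 to 1.67). Between the combination and IL-10/2-Trikine libraries the T cell ratio was 0.656 (0.632 to 0.681), or 0.795 times that in C1q cells (0.725 to 0.873).

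**Figure D2:**
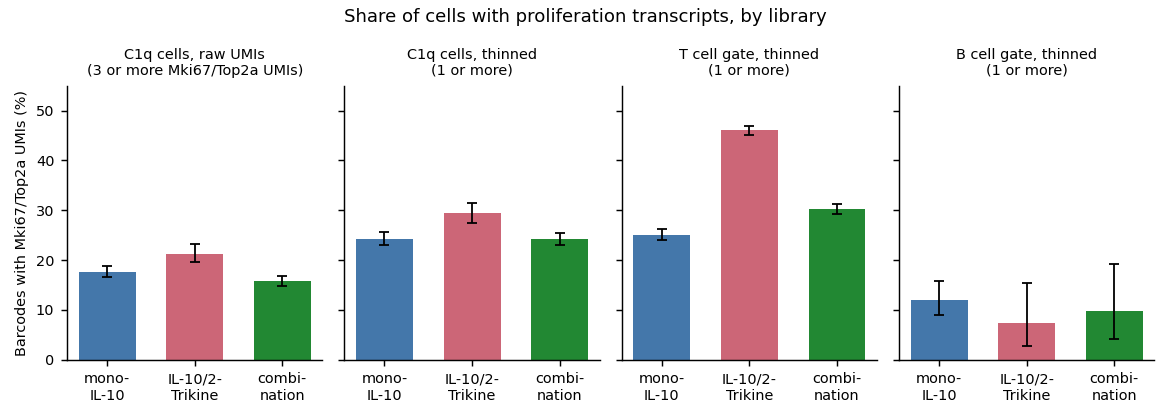
Share of cells in percent (vertical axis, from 0) by library and cell gate (horizontal axis), with exact 95% intervals as bars, for raw UMIs and after thinning to 2000 UMIs. The C1q cell share is highest in the IL-10/2-Trikine library in both measures (21.3% raw, 29.4% thinned), and the T cell gate spans a wider range between libraries (25.1% to 46.1% thinned).

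Genes of both S phase and mitosis were found in the cycling cells of every library. The limit rests on Mki67, a protein that coats mitotic chromosomes, and Top2a, the topoisomerase that untangles replicated DNA, so their detection in these cells is no finding. More UMIs of the 43 S phase genes than of the 52 G2/M genes were found in 28.1% (25 to 31.3), 31.3% (27.1 to 35.8) and 27.9% (24.8 to 31.2) of them. The medians per cell were 34, 31 and 29 UMIs of S phase genes and 73, 57 and 66 UMIs of G2/M genes. More S phase than G2/M UMIs were also found in 20.3%, 21.2% and 22.4% of resting cells, so this share is not read as the fraction of cells in S phase. The difference in this share between libraries was not tested.

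Since Mki67 and Top2a chose the cells, the contrast with resting cells is a description, and other genes of division are high in it by construction. Of 11728 genes with at least 20 UMIs in every library's pair of classes, 788 (6.72%) were at least 2-fold higher in cycling cells in all 3 libraries and 291 (2.48%) at least 2-fold lower. The median log2 ratio over all of these genes was 0.09, 0.15 and 0.17, and list medians below can be read against these values. TMM scaling put the center higher still, at 0.13, 0.22 and 0.23. The share of all genes above or below 0 in all 3 libraries was not taken. Counts of list genes by sign below are therefore descriptions without a background share.

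Of the S phase list, 38 of 43 genes were at least 2-fold higher in all 3 libraries, with medians of 2.39, 2.39 and 2.34 on the log2 scale. Rrm2, the ribonucleotide reductase subunit that supplies deoxynucleotides, stood at 190, 235 and 232 CPM in cycling and at 5.96, 12.7 and 11.1 CPM in resting cells. Of the G2/M list, 49 of 52 genes were 2-fold higher in all 3 libraries, with medians of 3.86, 3.4 and 3.7. The genes furthest apart by their smallest ratio were H3c3 (a histone H3 gene, log2 ratio at least 6.03 in each library), Esco2 (a cohesin acetyltransferase, 5.40), H1f5 (a linker histone, 5.27), Aspm (a spindle pole protein, 5.14), Neil3 (a DNA glycosylase, 5.08), Sgo2a (a shugoshin that guards centromeric cohesin, 5.00), Nusap1 (a spindle protein, 4.97), Cdca2 (4.94), Kif11 (the spindle kinesin Eg5, 4.90) and H2ac8 (a histone H2A gene, 4.81). Kif11 stood at 166, 158 and 166 CPM in cycling cells, where 466, 239 and 455 of them had a UMI, against 4.9, 5.2 and 5.57 CPM in resting cells. Nusap1 stood at 139, 135 and 119 CPM against 3, 4.32 and 3.3 CPM. Hmmr, a microtubule binding protein of the spindle, stood at 95, 104 and 88.7 CPM against 3.4, 4.54 and 3.65 CPM. For Kif11, Nusap1 and Hmmr the 3 libraries lay close together and well apart from resting cells, whereas Esco2 stood at 67.2, 98.1 and 81.6 CPM, highest in the IL-10/2-Trikine library.

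Histone genes that are copied in step with DNA replication are read out as messages largely without a poly(A) tail, and their capture by a poly(A) method is partial. Of 11 such genes with enough UMIs, 10 were at least 2-fold higher in cycling cells in all 3 libraries. H3c3 stood at 170, 123 and 158 CPM against 1.82, 1.88 and 1.96 CPM, and H1f5 at 960, 785 and 758 CPM against 15.4, 20.4 and 15.6 CPM. The IL-10/2-Trikine library had the lowest level of H3c3, and all 12 histone genes measured between these libraries were lower there than in the mono-IL-10 library, with a median log2 ratio of -0.47 (-0.62 to -0.29). In resting cells the median was -0.44 (-1.09 to 0.09). From the IL-10/2-Trikine to the combination library, 10 of 12 were higher, with a median of 0.33 (0.19 to 0.4).

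Promoters of Nusap1, Kif11 and Hmmr, the 3 highest-ranked genes of the G2/M list for which a promoter was found (Cdca2 ranked between Nusap1 and Kif11), are shown because the CHR element and the CCAAT box are known features of promoters of this group. They are RefSeq promoters of build GRCm38.p6, 120 bases before to 30 bases from the start site, given 5′ to 3′ on the gene's strand. They are from chr2:119618178-119618327 (Nusap1, plus strand), chr19:37376262-37376411 (Kif11, plus strand) and chr11:40733408-40733557 (Hmmr, minus strand). Capitals mark the CHR element (TTTGAA or TTTAAA) and the CCAAT box, the site of the factor NF-Y, on either strand, so that TTCAAA and ATTGG are the same motifs read from the other strand.
Nusap1: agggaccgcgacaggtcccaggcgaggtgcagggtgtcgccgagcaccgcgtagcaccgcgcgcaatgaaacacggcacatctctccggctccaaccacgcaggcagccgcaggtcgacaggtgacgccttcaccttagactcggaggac
Kif11: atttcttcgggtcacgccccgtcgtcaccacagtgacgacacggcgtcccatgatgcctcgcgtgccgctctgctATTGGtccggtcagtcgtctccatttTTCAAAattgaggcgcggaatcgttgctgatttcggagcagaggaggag
Hmmr: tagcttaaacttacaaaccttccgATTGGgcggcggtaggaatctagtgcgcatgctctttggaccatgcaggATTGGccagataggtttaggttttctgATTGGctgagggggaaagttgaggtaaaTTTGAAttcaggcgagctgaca

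In the Kif11 promoter a CCAAT box began 45 bases and a CHR element 19 bases before the start site. In the Hmmr promoter the CHR element lay 8 bases past the start site, with 3 CCAAT boxes in the printed stretch and 5 in the whole window of 250 bases before to 50 after the start site. The Nusap1 window held neither. Promoters were found for 45 of the 52 G2/M genes (50 promoters), and 78% of them held a CHR element and 74% a CCAAT box, against 27.6% and 37.4% of all 32851 promoters of the same length. Within 50 bases of the start site, the G2/M shares were 56% and 62%, against 8.28% and 13.6% of all promoters. For the S phase list (31 of 43 genes, 34 promoters), the CHR share was 26.5%, close to that of all promoters, the CCAAT share was 67.6%, and 20.6% held the E2F motif (TTTCGCGC or TTTGGCGC), against 4% of G2/M and 0.813% of all promoters. A match is a description of letters in this window and does not show that a factor binds there.

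Genes that govern entry into the cycle were mostly higher in cycling cells. Of 20 G1 control genes, 18 were above 0 on the log2 scale in all 3 libraries and 1 below, 8 were at least 2-fold higher in each and 1 was 2-fold lower. Ccne1, the cyclin E that starts S phase, stood at 135, 149 and 227 CPM in cycling and at 15.7, 27.6 and 43.6 CPM in resting cells, with the combination library highest in both classes. Ccnd2, a D-type cyclin, stood at 343, 371 and 396 CPM against 205, 194 and 209 CPM, whereas Ccnd1 and Ccnd3 stood within 1.5-fold of resting cells (log2 ratios 0.31, 0.55 and 0.36, and 0.23, 0.18 and 0.09). Among inhibitors of the cyclin-dependent kinases the direction differed. Cdkn1a, which encodes p21, was the gene that was lower, at 135, 198 and 176 CPM against 298, 549 and 506 CPM. Cdkn2c, which encodes p18, was higher, at 82.4, 71.8 and 84.9 CPM against 12.1, 10.2 and 10.4 CPM, and so was Cdkn2d, at 99.4, 80 and 88.7 CPM against 29.5, 30.9 and 27.5 CPM. Cdkn1b, which encodes p27, was nearly level at 149, 147 and 161 CPM against 151, 159 and 137 CPM.

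**Figure D3:**
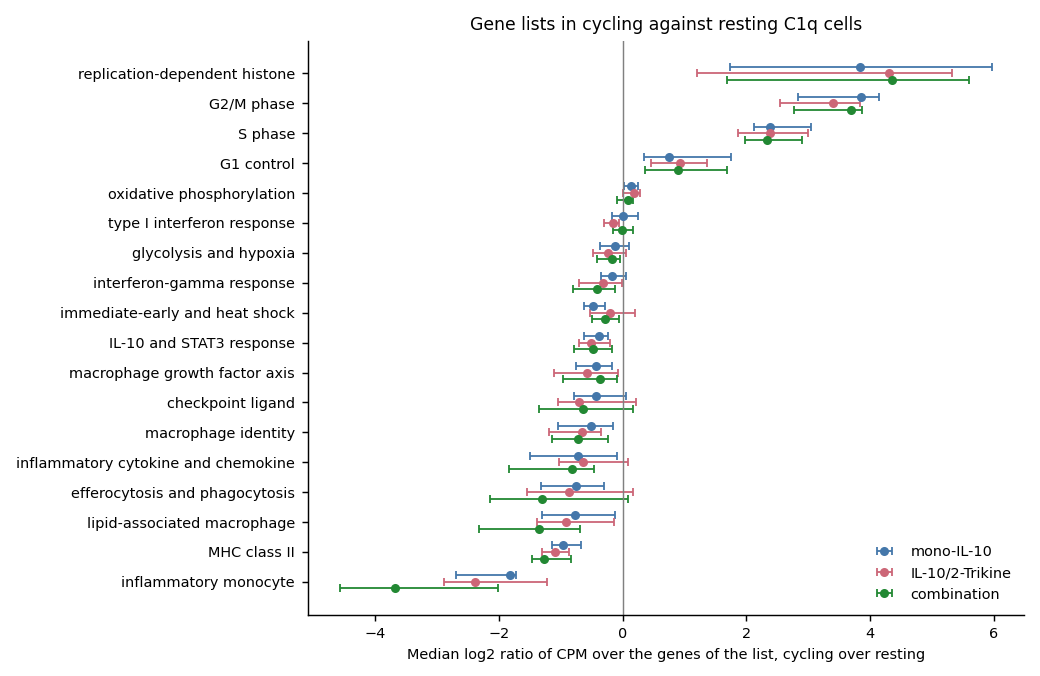
Median log2 ratio of CPM in cycling over resting C1q cells (horizontal axis) for selected gene lists (vertical axis), 1 point per library, with order-statistic 95% intervals over the genes of a list where there are enough genes. Replication histone, G2/M and S phase lists lie above 2, and the inflammatory monocyte and MHC class II lists lie below 0 in all 3 libraries (medians of -1.83, -2.39 and -3.68, and of -0.97, -1.1 and -1.28).

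Markers of recently recruited monocytes were lower in cycling cells. Of 14 inflammatory monocyte genes, 12 were at least 2-fold lower in all 3 libraries and the other 2 were below 0 on the log2 scale in each, and the medians were -1.83, -2.39 and -3.68. Ccr2, the receptor that draws monocytes from the blood, stood at 29.4, 64.1 and 13.1 CPM in cycling and at 190, 346 and 217 CPM in resting cells. Plac8 stood at 293, 369 and 249 CPM against 1035, 1873 and 1515 CPM. The IL-10/2-Trikine library had the highest level of both genes in either class. Of the 10 lowest genes by the smallest ratio, Saa3 (an acute phase protein), Chil3 (a chitinase-like protein), Thbs1 (thrombospondin) and Ccr2 belong to this list, and the others were Lrg1, Gm56663, Sirpd, C5ar1 and Ccr1 (receptors of C5a and of chemokines) and Cd14 (a coreceptor for lipopolysaccharide), with smallest log2 ratios from -2.88 to -2.22. Cd14 stood at 66.5, 132 and 65 CPM in cycling and at 330, 613 and 504 CPM in resting cells. Cd14 transcripts were also found outside C1q cells, at 225, 139 and 104 CPM in barcodes with no C1q UMI, and the part of free RNA in these values was not tested.

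The list of MHC class II presentation held 9 genes of that pathway and 3 genes whose products costimulate T cells or receive their help (Cd86, Cd80 and Cd40), and was lower in cycling cells as a whole. All 12 were below 0 on the log2 scale in all 3 libraries, with medians of -0.97, -1.1 and -1.28. The 5 that were at least 2-fold lower in each library were Cd74, Ciita and the 3 costimulatory genes. Cd74, the invariant chain, stood at 4680, 3938 and 3609 CPM in cycling and at 10285, 9755 and 10231 CPM in resting cells. H2-Aa, a class II alpha chain, stood at 3722, 2932 and 2856 CPM against 7075, 6236 and 6756 CPM. Ciita, the coactivator that switches on class II genes, stood at 45.1, 40.2 and 34 CPM against 107, 102 and 84.8 CPM. The costimulatory gene Cd86 stood at 190, 191 and 131 CPM against 401, 396 and 359 CPM. For each of these 4 genes, every cycling value lay below every resting value. The summed list was 18593, 14929 and 14611 CPM in cycling and 35442, 32097 and 34260 CPM in resting cells.

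Macrophage identity genes were lower by less, with medians of -0.52, -0.66 and -0.72, 20 of 22 below 0 in all 3 libraries and 6 at least 2-fold lower in each. The lineage factor gene Spi1 was nearly level, at 616, 576 and 578 CPM against 650, 621 and 618 CPM. Csf1r, the receptor for the growth factor of macrophages, stood at 115, 78.9 and 90.4 CPM against 193, 157 and 174 CPM. Cd68 and Cd81 were nearly level, at 300, 269 and 279 CPM against 310, 307 and 316 CPM, and at 319, 307 and 337 CPM against 328, 308 and 345 CPM. Apoe, which carries lipids, stood at 157, 118 and 142 CPM against 492, 335 and 454 CPM. Lyz2 was far lower at 150, 329 and 62.2 CPM against 738, 1221 and 838 CPM, but its level in barcodes with no C1q UMI was 1006, 490 and 410 CPM.

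**Figure D4:**
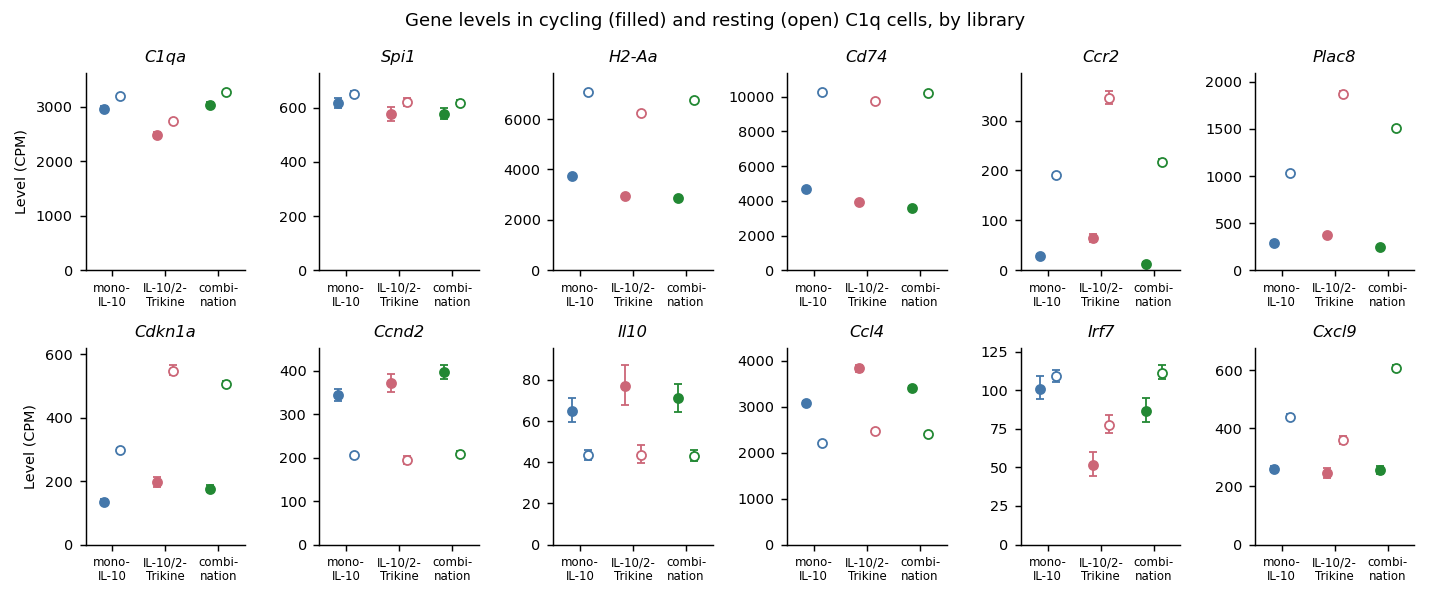
CPM with exact Poisson 95% intervals (vertical axes, linear from 0) of 12 named genes in cycling (filled) and resting (open) C1q cells of the 3 libraries (horizontal axes). C1qa and Spi1 lie close together in both classes, Cd74, H2-Aa, Ccr2, Plac8 and Cdkn1a lie lower in cycling cells, and Ccl4 and Il10 lie higher (3092, 3834 and 3402 against 2220, 2474 and 2411 CPM for Ccl4).

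Receptors for phagocytosis and genes of lipid handling were mostly lower in cycling cells. Of 13 measured genes of efferocytosis and phagocytosis, 9 were below 0 on the log2 scale in all 3 libraries and 2 above, 4 were at least 2-fold lower in each, and the medians were -0.76, -0.87 and -1.3. Intervals of the IL-10/2-Trikine (-1.55 to 0.17) and combination (-2.15 to 0.09) medians included 0. The summed list was nearly level, at 6682, 6034 and 6596 CPM against 6777, 6678 and 6814 CPM. Mertk, the receptor for apoptotic cells, stood at 14, 8.86 and 15.8 CPM against 34.2, 38.8 and 39.2 CPM, and Fcgr3 at 110, 124 and 110 CPM against 274, 358 and 379 CPM. Fcer1g, the shared signaling chain of Fc receptors, was level to slightly higher at 5700, 5064 and 5574 CPM against 5193, 4834 and 4956 CPM. Of 15 lipid-associated genes 11 were below 0 in all 3 libraries and none above (medians -0.77, -0.91 and -1.35), and 5 were 2-fold lower in each, among them Abca1 (17.9, 28.9 and 16.3 CPM against 77.1, 78.2 and 71.9) and Fabp5 (63.7, 201 and 96.1 CPM against 158, 497 and 484). Plin2, the coat of lipid droplets, was level at 354, 412 and 461 CPM against 377, 453 and 453 CPM. Mrc1, the mannose receptor of alternatively activated macrophages, had a UMI in 1.01%, 3.39% and 0.917% of cycling cells thinned to 2000 UMIs, against 3.26%, 8.48% and 6.6% of resting cells. In the same barcodes past the B cell limit, without C1q or T cell UMIs, that share was 0.267%, 4.94% and 1.41%, so the cycling values of the IL-10/2-Trikine and combination libraries lay at or below this background.

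Inflammatory cytokine and chemokine genes were mostly lower, with exceptions. Of 20 such genes, 14 were below 0 on the log2 scale in all 3 libraries and 5 above, 5 were at least 2-fold lower in each and 1 was 2-fold higher, with medians of -0.72, -0.65 and -0.82. The interval of the IL-10/2-Trikine median included 0 (-1.03 to 0.08). The gene that was 2-fold higher was Il6, at 23.4, 28.4 and 19.4 CPM against 7.54, 10.5 and 7.97 CPM. Ccl4 and Ccl3, a pair of inflammatory chemokines, were higher in cycling cells, at 3092, 3834 and 3402 CPM against 2220, 2474 and 2411 CPM, and at 456, 579 and 411 CPM against 292, 328 and 269 CPM. Tnf was also higher, at 212, 260 and 244 CPM against 167, 177 and 204 CPM. Il1b was lower, at 1984, 1781 and 1828 CPM against 3829, 4817 and 4021 CPM, as was Nlrp3, the sensor that drives its processing, at 30.9, 50.8 and 32.1 CPM against 102, 157 and 115 CPM. Vegfa, the angiogenic factor, stood at 35.5, 39 and 29.7 CPM against 88.2, 79.5 and 75 CPM.

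The receptor and targets of the cytokine given to every group were present in cycling cells. Il10ra, the binding chain of IL-10R, stood at 173, 157 and 167 CPM in cycling and at 208, 178 and 179 CPM in resting cells. Il10, the mouse gene itself, stood at 65, 77.1 and 71 CPM against 43.4, 43.6 and 43.1 CPM, higher in cycling cells in each library. Socs3, a feedback target of STAT3, stood at 670, 548 and 617 CPM against 785, 634 and 698 CPM. Of 17 measured IL-10 and STAT3 response genes, 15 were below 0 in all 3 libraries and 1 (Nfil3, 48.8, 55.8 and 62.2 CPM against 141, 186 and 162) was 2-fold lower, with medians of -0.38, -0.52 and -0.48. The exceptions were Il10 and Etv3. No library without an IL-10 based cytokine is among the samples, so a response to it cannot be read from these levels. Il2rb, the IL-2 receptor chain that the Trikine recruits, stood at 5.23, 17.4 and 20.1 CPM in cycling and at 6.73, 15.3 and 22 CPM in resting cells, while NK cell genes had the same order of libraries in resting cells (summed 163, 504 and 591 CPM), and their part in it was not tested.

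Of 14 measured genes of the macrophage growth factor axis, 11 were below 0 in all 3 libraries (medians -0.44, -0.57 and -0.36). In cycling cells Csf1 was at most 1.72 CPM and Il34 at most 0.262 CPM. Of 12 checkpoint ligand and receptor genes, 2 were 2-fold lower in all 3 libraries (Cd80 and Cd86, counted above as well), and Cd274, which encodes PD-L1, stood at 249, 169 and 214 CPM against 346, 322 and 375 CPM. Of 26 interferon-gamma response genes, 2 were 2-fold lower in all 3 libraries and 18 below 0. Cxcl10, a chemokine for T cells, was lowest relative to resting cells in the combination library (log2 ratios -1.45, -1.93 and -2.86). Of 25 type I interferon genes, 1 was 2-fold lower, and the medians of 0.01, -0.15 and -0.01 were close to 0. Of 18 oxidative phosphorylation genes none was 2-fold apart, and the medians were 0.14, 0.18 and 0.08. Under TMM scaling the medians of the IL-10/2-Trikine and combination libraries were below 0 (-0.04 and -0.15), and that of the combination library was also below 0 with only barcodes of 5000 to 20000 UMIs (-0.01). Medians of 18 immediate-early and heat shock genes were -0.48, -0.21 and -0.28, and of 19 glycolysis and hypoxia genes -0.13, -0.23 and -0.17. The interval included 0 for the former list in the IL-10/2-Trikine library (-0.53 to 0.2). For the latter it did so in the mono-IL-10 (-0.36 to 0.1) and IL-10/2-Trikine (-0.48 to 0.05) libraries. Of 8 measured genes of resident-type macrophages the medians were -1.12, -1.14 and -2.71, at low levels (summed 123, 246 and 128 CPM in cycling cells). The interval of the IL-10/2-Trikine median was wide and included 0 (-2.26 to 2.22).

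Transcripts of other cell types were measured in the same sums. T cell genes summed to 84.6, 126 and 114 CPM in cycling and to 92, 117 and 151 CPM in resting cells, and none of them was 2-fold apart in all 3 libraries. NK cell genes summed to 176, 542 and 517 CPM against 163, 504 and 591 CPM. B cell genes summed to 551, 465 and 513 CPM against 382, 277 and 265 CPM, of which Ighm made up 461, 396 and 437 CPM in cycling cells and Cd79b (part of the B cell limit) 53.8, 57.9 and 56.4 CPM. Each other gene of the list was at or below 15.2 CPM, and Cd79a, Cd22 and Fcmr were at or below 1.05 CPM. Neutrophil genes summed to 85.6, 119 and 78.9 CPM, of which Csf3r made up 83.2, 69.4 and 77 CPM, and S100a8 stood at 1.05, 18 and 0.172 CPM. Dendritic cell genes summed to 348, 336 and 334 CPM. The fibroblast and endothelial list summed to 501, 415 and 488 CPM, of which Pecam1, which macrophages also carry, made up 486, 401 and 470 CPM. The mast cell and basophil list reached at most 6.5 CPM, and the erythroid list at most 0.523 CPM.

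Genes of KP1 tumor cells also differed by library, with summed levels of 44.6, 157 and 65.8 CPM in cycling and of 21.5, 33.5 and 24.8 CPM in resting cells. All 10 measured genes of this list were higher in cycling cells in all 3 libraries, 3 of them 2-fold. Most of these UMIs lay in few barcodes, as 16, 14 and 13 cycling cells (2%, 3.11% and 1.67%) with at least 3 UMIs of the list held 84.5%, 93.8% and 90.1% of its UMIs. Among resting cells the share of such barcodes was 0.349%, 0.483% and 0.53%. Each of these barcodes passed the C1q limit. In the cycling class their median C1q UMIs were 50, 44.5 and 50, against 90.5, 58 and 68 in the other cycling cells. Their median total UMIs were 11016, 20274 and 16799, against 8940, 6596 and 7057 in the other cycling cells. They thus held fewer C1q UMIs at a greater depth.

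The IL-10/2-Trikine library was then set against the mono-IL-10 library within cycling C1q cells, a comparison of the cytokine with and without its IL-2 arm. Of 11702 genes with at least 20 UMIs in the pair, 632 (5.4%) were at least 2-fold higher in the IL-10/2-Trikine library and 174 (1.49%) at least 2-fold lower, and the median log2 ratio was 0.04. Between the resting cells of these libraries, 418 of 13243 genes were at least 2-fold higher and 334 at least 2-fold lower. Barcodes that held at least 3 UMIs of KP1 tumor cell genes were left out in an alternative added after the values were seen. The number of genes 2-fold apart in cycling cells was then 446 in place of 806. How many genes were measured without these barcodes was not taken, so 446 has no share beside it.

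Several of the highest ratios came from few cells. Retnla, a secreted product of alternatively activated macrophages, had 31, 1207 and 2 UMIs in the 3 libraries, and 5 of the 6 cells with a UMI held 99.9% of those in the IL-10/2-Trikine library. Ccl24 (177 UMIs in 13 cells, 90.4% of them in 5 cells) and Mmp12 (189 UMIs in 9 cells, 96.3%) had the same form, and Ccl8 (343 UMIs in 23 cells, 80.2%) came close to it. In resting cells Retnla stood at 36.8, 192 and 99.6 CPM and Ccl24 at 9.69, 153 and 164 CPM, so both genes were also present in resting cells of that library. With a limit of 2 Mki67 and Top2a UMIs the log2 ratios of IL-10/2-Trikine over mono-IL-10 were 1.36 in place of 2.98 for Mmp12 and 1.56 in place of 2.51 for Ccl8.

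Another set of high genes had many of its UMIs in barcodes with tumor transcripts. Mycl, the gene of the L-Myc oncoprotein, stood at 42.8, 250 and 82.5 CPM, 5.85-fold higher in the IL-10/2-Trikine than in the mono-IL-10 library. Ccdc30 (11.6, 80.9 and 20.6 CPM) was 6.95-fold higher, Trit1 4.44-fold, Tuba1a 4.24-fold and Ppie 4.21-fold. In the order of RefSeq genes, Trit1 and Ppie lie next to Mycl and 4 places from it, with Bmp8b and an unmeasured gene between them, and Bmp8b (log2 ratio -0.28), Cap1 (0.45), Ppt1 (0.2) and Pabpc4 (0.03) nearby had low ratios. The barcodes with at least 3 UMIs of KP1 genes held 74.6%, 92.7% and 74.6% of all Mycl UMIs. Without them the log2 ratios were 0.85 for Mycl, 0.07 for Trit1, 0.22 for Ppie and 0.74 for Tuba1a, and Ccdc30 had too few UMIs left to be measured. The 4 measured ratios were thus smaller without these barcodes, and the part of tumor transcripts in the other cells was not tested.

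Gzma, a granzyme of NK and T cells, was the remaining gene of the highest 10, at 56.9, 238 and 232 CPM in cycling and at 45.6, 241 and 275 CPM in resting cells. In the IL-10/2-Trikine library, 5 of the 208 cycling cells with a Gzma UMI held 45.9% of its UMIs. All 12 NK cell genes were higher in the IL-10/2-Trikine library, with a median log2 ratio of 1.55 (1.17 to 2.29) in cycling and 1.31 (0.22 to 1.79) in resting cells. At least 2 UMIs of NK receptor genes were found in 2.12%, 5.11% and 4.76% of cycling cells and in 1.77%, 2.71% and 3.78% of resting cells. Without these barcodes the NK cell median in cycling cells was 0.64, and without these and the tumor-bearing barcodes it was 0.78. The receptor genes that chose these barcodes belong to the NK cell list, so the smaller median is partly set by that choice. The log2 ratio of Gzma was 2.06, or 2.36 without both sets of barcodes and 1.13 in cells with no UMI of other cell types.

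Genes that were lower in the IL-10/2-Trikine library rested on many cells. Cx3cr1, the fractalkine receptor of macrophages and monocytes, stood at 118, 52.9 and 73.9 CPM, or 0.448-fold (0.38 to 0.527), and 363, 108 and 221 cycling cells had a UMI. The ratio in resting cells was 0.687, and log2 was -1.07 in cycling cells without the tumor-bearing barcodes. Irf7, the interferon regulatory factor that amplifies type I responses, stood at 101, 51.7 and 86.8 CPM, or 0.511-fold (0.431 to 0.602), against 0.715-fold in resting cells. Tmem176b and Tmem176a, membrane genes of myeloid cells, stood at 541, 292 and 361 CPM and at 343, 179 and 230 CPM, with ratios of 0.54 (0.503 to 0.579) and 0.522 (0.477 to 0.571). Nav2 (0.468), Sorl1 (a sorting receptor, 0.505), Plxnc1 (a semaphorin receptor, 0.545), Lars2 (the mitochondrial leucyl-tRNA synthetase, 0.548) and Inpp4a (a phosphoinositide phosphatase, 0.56) completed this set, and the 5 cells with most UMIs held at most 13.2% of the UMIs of any of these 9 genes. Saa3 was the exception, at 52.5, 7.38 and 4.98 CPM, with 70.6% of its mono-IL-10 UMIs in 5 of 41 cells. Resting cells had ratios below 1 for these genes too. They were 0.508 for Nav2, 0.596 for Plxnc1, 0.6 for Lars2, 0.645 for Tmem176a and 0.726 for Tmem176b. For Saa3, Inpp4a and Sorl1 they were nearer to 1, at 0.741, 0.837 and 0.925.

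By lists, type I interferon genes were lower in the IL-10/2-Trikine than in the mono-IL-10 library, with a median log2 ratio of -0.34 (-0.53 to -0.28), 3 of 25 genes above 0 and 2 at least 2-fold lower. The same list had a median of -0.27 (-0.36 to -0.05) in resting cells. Interferon-gamma genes had a median of -0.08 (-0.22 to 0.09). Macrophage identity genes had -0.22 (-0.47 to -0.06), with 4 of 22 above 0, against -0.06 (-0.3 to 0.14) in resting cells. S phase genes had 0.15 (0.05 to 0.27) and G2/M genes 0.01 (-0.05 to 0.05). Inflammatory monocyte genes had 0.98 (-0.37 to 1.19), a median that was 0.43 with equal weight per cell, 0.48 without tumor-bearing and NK barcodes and -0.56 in cells with no UMI of other cell types, so its size and sign depended on which cells entered. Other medians were 0.32 (0.14 to 0.72) for inflammatory cytokine and chemokine genes, 0.76 (0.14 to 1.26) for lipid-associated genes, -0.21 (-0.31 to 0.2) for MHC class II genes, -0.01 (-0.17 to 0.2) for IL-10 and STAT3 response genes and 0.17 (0.09 to 0.22) for oxidative phosphorylation genes.

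**Figure D5:**
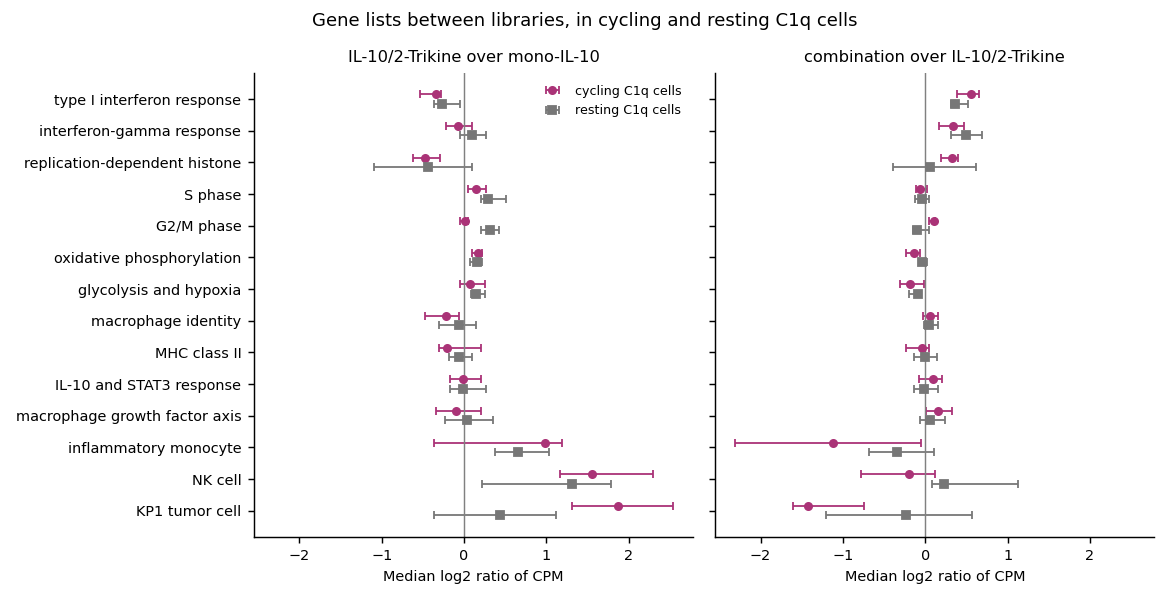
Median log2 ratio of CPM between libraries (horizontal axes) for selected gene lists (vertical axis) within cycling and within resting C1q cells, with order-statistic 95% intervals over genes, for IL-10/2-Trikine over mono-IL-10 and for combination over IL-10/2-Trikine. The type I interferon list lies below 0 in the former (-0.34 in cycling cells) and above 0 in the latter (0.55), and of the lists plotted, the KP1 tumor cell and NK cell lists lie furthest above 0 in the former in cycling cells (1.87 and 1.55).

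The combination and IL-10/2-Trikine libraries were compared to ask what anti-PD-1 added. This comparison shares the IL-10/2-Trikine library with the one above, so a value peculiar to that library enters both with opposite sign. Of 11469 genes, 147 (1.28%) were at least 2-fold higher in the combination library and 502 (4.38%) at least 2-fold lower, with a median log2 ratio of 0.02. Between the resting cells, 257 of 13188 genes were at least 2-fold higher and 193 at least 2-fold lower. In cycling cells the number 2-fold apart was 649, and 387 without the barcodes with tumor transcripts, again with no share taken for the latter.

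All 25 type I interferon genes were higher in the combination library, with a median log2 ratio of 0.55 (0.38 to 0.65), against 0.36 (0.31 to 0.52) in resting cells, where all 25 were higher too. The 3 genes at least 2-fold higher, Cmpk2, Mx2 and Ifit3b, stood at or below 12.5 CPM. Ifit1, which binds foreign RNA caps, stood at 38.3, 34.9 and 64.3 CPM, so the combination value lay above both others. Oasl1, a relative of the oligoadenylate synthetases, stood at 136, 159 and 247 CPM. Irf7 stood at 101, 51.7 and 86.8 CPM, so that it was higher in the combination than in the IL-10/2-Trikine library (1.68-fold, 1.41 to 2.01) but not higher than in the mono-IL-10 library.

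Interferon-gamma genes were higher as well, 24 of 26 of them, with a median log2 ratio of 0.34 (0.17 to 0.47), against 0.49 (0.31 to 0.69) and 26 of 26 in resting cells. Igtp, an interferon-inducible GTPase, stood at 100, 101 and 168 CPM in cycling and at 109, 116 and 184 CPM in resting cells. Gbp6, a guanylate-binding protein, stood at 36.2, 27.5 and 53.6 CPM. The exceptions were Cxcl10, at 80.8, 104 and 78.2 CPM in cycling against 221, 396 and 569 CPM in resting cells, and Psmb8, at 646, 728 and 682 CPM.

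Other genes among the 10 with the highest ratios of combination to IL-10/2-Trikine were Hspa1b (a heat shock protein 70 gene, log2 ratio 1.14), Ghr (the growth hormone receptor, 1.12), Gpc5 (a glypican, 0.80), Tmem140 (0.79) and Fhod3 (a formin, 0.77). Ghr stood at 73.7, 67.6 and 147 CPM in cycling and at 21.8, 17.3 and 37.5 CPM in resting cells, with the combination library highest in both classes. Hspa1b stood at 107, 62 and 136 CPM, so the combination value was nearer to the mono-IL-10 value. The 10 genes were found in 129 to 432 combination cells each, and the 5 cells with most UMIs held 5.74% to 21.3% of them.

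Several of the genes with the lowest ratios were again held by few cells of the IL-10/2-Trikine library. Retnla had 2 UMIs in the combination library, a ratio of 0.000964 (0.000117 to 0.00349). Fn1, which encodes fibronectin, stood at 21.2, 81.5 and 1.55 CPM, with 94.6% of the 276 IL-10/2-Trikine UMIs in 5 of 12 cells. Ccl24, Plxdc2, Cxcl2, Lyz2, Ccr2, Ahnak, Crip1 and Ccl6 followed, with log2 ratios from -4.66 to -2.04 and 40.2% to 90.4% of their UMIs in 5 cells, although Crip1 was found in 129 and Ccl6 in 95 cells of that library. With a limit of 2 in place of 3 Mki67 and Top2a UMIs, the log2 ratio of Retnla went from -10.02 to -3.46, that of Fn1 from -5.72 to -2.42 and that of Ccl24 from -4.66 to -0.65, so the size of each depended on the limit. Lyz2, lysozyme, stood at 150, 329 and 62.2 CPM, and Ccl6, a chemokine, at 61.7, 152 and 36.9 CPM. In resting cells the ratios of Lyz2 and Ccl6 were nearer to 1 (0.687 and 0.858).

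Among lists, the median log2 ratio was -1.12 (-2.31 to -0.05) for inflammatory monocyte genes and -1.43 (-1.61 to -0.74) for KP1 tumor cell genes, with 0 of 10 above 0. Of the monocyte list, Fn1 had 94.6% and Ccr2 42.4% of its IL-10/2-Trikine UMIs in 5 cells, which the interval of the median leaves out. The 7 measured genes of resident-type macrophages had -3.04 (-4.66 to 0.46), against 1.6 (-0.04 to 3.43) in IL-10/2-Trikine over mono-IL-10, at low levels. Under the alternatives the former ranged from -3.56 to -1.42. In resting cells the medians of 11 such genes were 0.1 (-0.95 to 1.15) and 0.22 (-1.49 to 2.28). The interval ends of -4.66 and 3.43 in cycling cells match the log2 ratios of Ccl24, which had 90.4% of its IL-10/2-Trikine UMIs in 5 cells. Lipid-associated genes had -0.77 (-1.48 to 0.16) and inflammatory cytokine and chemokine genes -0.44 (-0.96 to 0.04). G2/M genes had 0.1 (0.05 to 0.12) with 42 of 52 above 0, and S phase genes -0.06 (-0.11 to 0.02). In cells with no UMI of other cell types the G2/M median was -0.08, so its sign depended on those cells. Macrophage identity genes had 0.06 (-0.03 to 0.16), MHC class II genes -0.04 (-0.24 to 0.05), IL-10 and STAT3 response genes 0.09 (-0.08 to 0.2), growth factor genes 0.16 (0.01 to 0.32), oxidative phosphorylation genes -0.14 (-0.24 to -0.07), and NK cell genes -0.2 (-0.78 to 0.12). The growth factor median was -0.01 in cells with no UMI of other cell types.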

How the data were processed

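Single-cell 3′ RNA libraries of sorted CD45+ cells were deposited as 1 matrix per group. The deposited values are raw UMI counts for every gene and barcode, made by the authors with Cell Ranger (version 8.0.0 per the file headers, another version in the methods). The methods name the mouse build GRCm39 with introns counted and the labels name mm10, so no gene coordinates are taken from the files. The labels call the cells T cells, whereas the sort was on CD45. The study states fewer cells than the 71909 kept here under the same limits, and the cause was not tested.

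UMIs were summed over cycling and over resting C1q cells of each library and scaled to CPM. Shares carry exact Clopper-Pearson intervals, ratios of shares log intervals, CPM levels exact Poisson intervals, CPM ratios exact conditional binomial intervals and list medians order-statistic intervals, all at 95%. UMIs mark molecules, and intervals of shares, levels and ratios cover counting error only. They leave out mice, libraries and the clustering of UMIs in few cells. Intervals of list medians rest on the spread between the genes of a list, and leave out mice and libraries too. They also leave out that UMIs of several genes of a list can lie in the same few cells. A gene needed 20 UMIs in a pair, and the 28 lists were written by hand. The cells, lists and alternatives were chosen with earlier results of these data known.

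Named genes were the 10 highest and 10 lowest ratios with at least 50 CPM in the higher class or library (for cycling against resting, by the ratio nearest to 0 of 3 libraries of 1 sign), without Mki67, Top2a, Xist and genes of mitochondria, ribosomal proteins, hemoglobin, antigen receptors and the Y chromosome. Members of lists were named by size of ratio among those with 50 CPM. Other genes in the text (among them Cd72, Fcgr4, Cxcl13, Pecam1, and list members with ratios near 0 or low levels) were chosen after their values were seen. Some genes that meet these rules are not reported here. Doublet scores came from Scrublet in scanpy 1.11.5. Sums and intervals were computed with scipy 1.17.1, numpy 2.4.6 and pandas 2.3.3 in Python 3.11.15 and plotted with matplotlib 3.10.9. The ratio and list steps were tested on simulated counts. Promoter letters are from RefSeq (GRCm38.p6). Alternatives changed the gates, doublets, depth, scaling and filters.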

Additional observations from a re-analysis of the deposited data

Results flagged for a closer look

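Barcodes with at least 5 C1q UMIs that were past the T cell limit, and so belong to neither cycling nor resting C1q cells, often carried division transcripts. Of 1703, 1179 and 1116 such barcodes, 47.5% (45.1 to 49.9), 60.7% (57.9 to 63.5) and 40% (37.1 to 42.9) had at least 3 UMIs of Mki67 and Top2a, all above the shares of 17.7%, 21.3% and 15.8% in C1q cells. Their median depth was 14614, 14322 and 10450 UMIs. They were looked at because they lie outside the cells compared, and the part of doublets and free RNA in these values was not tested.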

How the results depend on the processing

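No paired analysis was possible because each group is 1 library. Ratios of the cycling share ranged from 1.13 to 1.35 (IL-10/2-Trikine over mono-IL-10, reported as 1.21) and from 0.739 to 0.853 (combination over IL-10/2-Trikine, reported as 0.739). Values outside the reported interval were 1.35 and 0.825 with only barcodes of 5000 to 20000 UMIs, and 0.825 and 0.853 with cells thinned to 2000 and 1000 UMIs. Counts of genes 2-fold apart depended on filters. The number of genes measured can change with the setting too and was not taken for the alternatives. A change in these counts is therefore not a change in the share of genes. The 806 genes of IL-10/2-Trikine over mono-IL-10 and the 649 of combination over IL-10/2-Trikine became 2190 and 1937 with 5 UMIs required, 142 and 108 with 100 UMIs, 4509 and 3770 with no filter, 388 and 385 in cells with no UMI of other cell types, 446 and 387 without barcodes of tumor transcripts, and 408 and 395 without those of tumor or NK cell transcripts. The former was 536 without the highest doublet scores and the latter 421 with at least 20 C1q UMIs. The 1079 genes 2-fold apart between cycling and resting cells became 1687 with no filter.

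Of the other values under each alternative, 2798 stayed within the reported interval, 220 lay outside it, and 8 changed sign although the reported interval excluded 0. Where the reported interval of a list median included 0, 95 of 825 values had the other sign, from 28 of 49 medians, among them that of inflammatory monocyte genes in IL-10/2-Trikine over mono-IL-10 (0.98, at lowest -0.56). Of the 8, in cells with no UMI of other cell types the log2 ratios of IL-10/2-Trikine over mono-IL-10 were -4.49 for Ccdc30, -0.40 for Trit1 and -0.54 for Tuba1a, and the medians of combination over IL-10/2-Trikine were -0.08 for G2/M and -0.01 for growth factor genes. Between cycling and resting cells, the NK cell median of the combination library was 0.08 with at least 2 Mki67 and Top2a UMIs, and in the IL-10/2-Trikine library the type I interferon median was 0.08 with at least 20 C1q UMIs and the oxidative phosphorylation median -0.04 under TMM scaling. Fewer cells or genes enter under the stricter limits, and the cause of other changes was not tested. Depth limits genes under 20 UMIs in a pair, and 1 library per group leaves variation between mice unmeasured.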
